A study of Mus musculus with 6 samples.

Results

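The spliceosome and the RNA-binding proteins that steer it are encoded by gene families with shared name stems, and 64 of the 11922 genes in the count table were taken by those stems. The stems do not use measured values, but they were picked with earlier results of these data known. They are the 12 genes whose symbols begin with Snrp (proteins of the spliceosomal small nuclear ribonucleoproteins, or snRNPs, 8 of the Sm ring and 4 of U1 or U2 alone), the 10 that begin with Srsf and a digit (serine and arginine rich splicing factors), the 20 that begin with Hnrnp (heterogeneous nuclear ribonucleoproteins), the 9 that begin with Sf3a or Sf3b and a digit (subunits of the U2-associated complexes SF3A and SF3B) and the 13 that begin with Lsm and a digit (Sm-like proteins). Snrnp70 and other spliceosome proteins with different stems are not among the 64 and were described as separate lists. All 64 passed the filter on low counts, which left 11759 genes for testing.

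Introns are removed from a new transcript by the spliceosome, which is built on each intron from the U1, U2, U4, U5 and U6 snRNPs. The Sm proteins form a ring on the small nuclear RNA of U1, U2, U4 and U5, the Lsm2 to Lsm8 ring binds U6, and SF3A and SF3B belong to the U2 snRNP that holds the branch site. SR proteins mostly promote the use of an exon and hnRNPs often oppose it, and T cells are known to change their splicing when they are activated, including that of Ptprc, which encodes the surface phosphatase CD45.

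Samples were splenic CD8+ T cells of C57BL6/J mice, for which no altered gene is named. Cells were stimulated for 72 hours with beads carrying antibodies to CD3 and CD28 and with interleukin-2 at 100 units/ml, then expanded in interleukin-2 for another 4 days. The vehicle group had water and the other group 0.25 mM AOA (aminoxyacetic acid, an inhibitor of enzymes that use the active form of vitamin B6, PLP) throughout, and RNA was taken on day 7. Mice 1, 2 and 3 each gave a culture to both groups, so replicate numbers name mice, and 1 culture per mouse and group stands behind each p-value. Levels are counts scaled to the TMM library size (CPM), and RPKM where genes are compared with each other, since RPKM also divides by gene length. Log2 fold changes set AOA over vehicle, and a gene is called when its adjusted p in the quasi-likelihood test of edgeR is under 0.05. With 3 cultures per group an exact two-sided permutation test of a single gene cannot go below 0.1, so only the fit across all genes was used.

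Total counts were 12881962 to 21997078 per library. The summed level of 7 CD8 T cell markers was 4207 to 5224 CPM with vehicle and 5133 to 6066 CPM with AOA, and among them Cd8a and Cd8b1 rose (1.03 and 0.64) and Cd2 fell (-0.61) on the log2 scale. Markers of other cells were low and moved with the treatment in part, since the summed level of 5 myeloid markers was 56.2 to 68.3 CPM against 5.01 to 8.46 CPM with AOA (2 of 5 fell), that of 4 CD4 T cell markers 158 to 210.5 CPM against 33.0 to 54.3 CPM (3 of 4 fell), that of 4 NK cell markers 149 to 332 CPM against 129 to 215 CPM (2 of 4 fell) and that of 5 B cell markers 12.94 to 18.5 CPM against 23.0 to 30.9 CPM (1 of 5 rose). Eomes made up most of the NK cell sum, at a mean of 151 CPM with vehicle and 155 CPM with AOA, and was not called. The NK cell markers that fell were Klrb1c and Tyrobp (-3.02 and -3.04). None of the 6 erythroid markers is listed. Ncr1, Lyz2 and Cd14 were too low to be tested. Their part in the results was not tested, and in bulk RNA fewer cells of a type and less RNA per cell cannot be told apart. AOA replicate 1 stood apart by gene length. In it the 22 members shorter than 1500 bases lay 0.26 above the mean of the AOA group on the log2 scale and the 42 longer members 0.08 below it, while in AOA replicates 2 and 3 the short members lay 0.15 and 0.11 below it. By a chi-square of counts per gene it differed from AOA replicates 2 and 3 by 72.3 and 65.7, against 10.7 between those. Vehicle replicate 2 stood apart in the same way, at 55.9 and 60.3 from vehicle replicates 1 and 3, against 10.2 between those. Counts are therefore also given without either library.

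Most splicing genes were higher with AOA. Of the 64 members 46 rose, 4 fell and 14 were not called. All 46 that rose were higher with AOA in all 3 mice, and all 4 that fell were lower in all 3. These signs come from the libraries that gave the calls, so they add no separate evidence. Over all tested genes 53.0% were called, 26.2% higher and 26.8% lower, against 78.1% of the members called and 71.9% higher. The median log2 fold change was 0.76 over the members and -0.02 over all tested genes. A rise of at least 1 on the log2 scale was called for 21 members, 32.8% of them, and for 12.1% of all tested genes. Without AOA replicate 1, 47 members rose and 3 fell, and without vehicle replicate 2, 46 rose and 3 fell. The count of lower members was 2 without vehicle replicate 1 (43 higher), 1 without vehicle replicate 3 (42 higher), 3 without AOA replicate 2 (45 higher) and 1 without AOA replicate 3 (44 higher). The AOA libraries lay wholly above the vehicle libraries for 47 members and wholly below for 6, and the groups overlapped for 11, where 62.1% of all tested genes did not overlap.

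**Figure D1:**
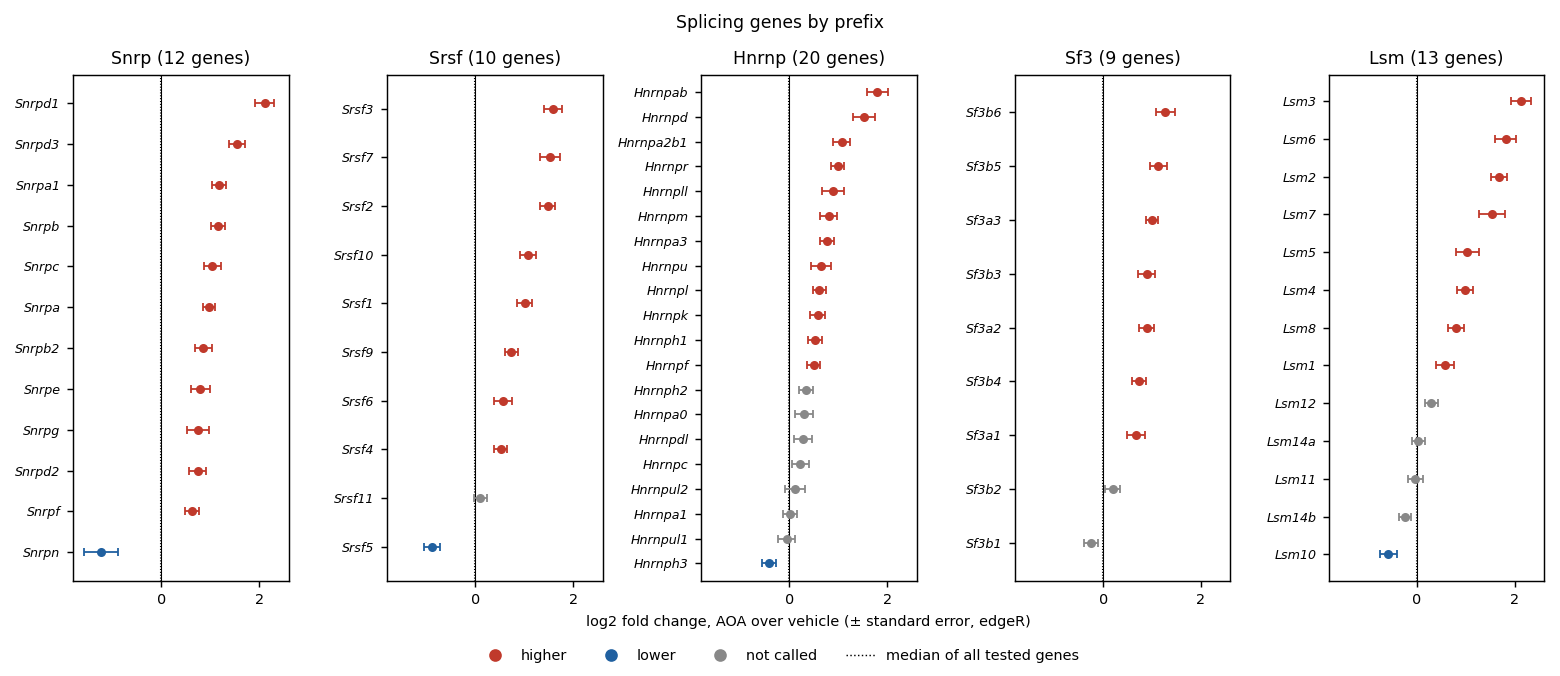
Log2 fold change of each of the 64 splicing genes (x axis, AOA over vehicle, edgeR, bars ± standard error, n = 3 cultures per group), with a panel per name stem and genes ordered by value. Red genes were called higher, blue lower and grey not called, and the dotted line is the median of all tested genes, -0.02. Most points lie to the right of 0, and Snrpn, Srsf5, Hnrnph3 and Lsm10 are the blue points.

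The summed level of these genes was higher with AOA in every mouse. Summed over the 64 genes the level was 8556, 8608 and 8218 CPM with vehicle and 13078, 13264 and 13539 CPM with AOA, a ratio of 1.57 between the group means. By stem the ratio of summed CPM was 2.15 for Snrp, 1.65 for Srsf, 1.58 for Hnrnp, 1.47 for Lsm and 1.28 for Sf3. The Snrp sum was 583, 607 and 612 CPM with vehicle and 1533, 1163 and 1181 CPM with AOA, with AOA replicate 1 above the other AOA libraries. The Hnrnp sum, the largest of the 5 in every library, was 4258, 4478 and 4206 CPM with vehicle and 6227, 7094 and 7192 CPM with AOA. For all 5 stems each AOA library lay above each vehicle library.

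**Figure D2:**
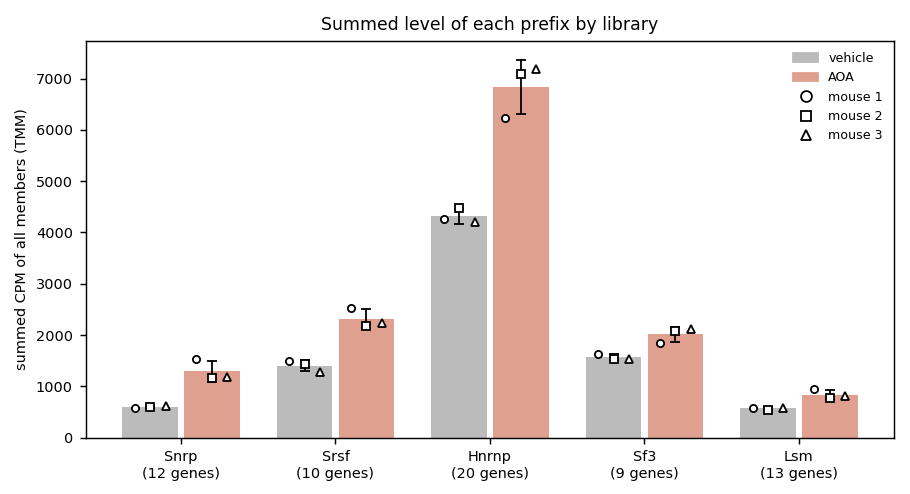
Summed CPM of all members of each name stem (y axis, TMM library sizes), with bars for the group means, error bars for the SD (n = 3) and a symbol for each mouse. The AOA bars are above the vehicle bars for all 5 stems, by a ratio of 2.15 for Snrp and 1.28 for Sf3.

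Proteins of the Sm ring are shared by the snRNPs, so their genes serve every round of splicing. All 7 genes for the common ring, Snrpb, Snrpd1, Snrpd2, Snrpd3, Snrpe, Snrpf and Snrpg, rose with AOA, and the eighth, Snrpn, fell. Snrpd1 measured 31.6, 43.6 and 35.7 CPM with vehicle and 203, 137 and 138 CPM with AOA. This was the largest rise among the Snrp genes, with a log2 fold change of 2.11 ± 0.20 (SE), adjusted p = 5.68e-05, and the groups were far apart. Snrpd3 measured 46.8, 62.1 and 51.2 CPM with vehicle and 178, 140.1 and 149.8 CPM with AOA, a log2 fold change of 1.54 ± 0.16 (SE), adjusted p = 8.45e-05. Snrpb, which encodes SmB, measured 132, 139 and 128 CPM with vehicle and 331, 285 and 273 CPM with AOA, with a log2 fold change of 1.16 ± 0.14 (SE), adjusted p = 0.000174. The remaining 4 rose by less, with log2 fold changes of 0.80 for Snrpe, 0.75 for Snrpg, 0.74 for Snrpd2 and 0.62 for Snrpf. Without AOA replicate 1 the rise of Snrpg was 0.44 and that of Snrpe 0.53, and once the trend of each library with gene length was removed it was 0.46 for Snrpg, 0.51 for Snrpe, 0.48 for Snrpd2 and 0.41 for Snrpf, and all 4 stayed called in both fits. Per length Snrpe was the most abundant Snrp gene, at 181 RPKM with vehicle and 314 RPKM with AOA. It measured 80.6, 91.8 and 94.6 CPM with vehicle and 207, 125 and 132 CPM with AOA, and AOA replicate 1 stood above the other AOA libraries. The median log2 fold change of the 8 ring genes was 0.77, and it was 0.56 without AOA replicate 1 and 0.50 with the length trend removed. In both of those fits 7 rose and 1 fell.

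Snrpn encodes SmN, which takes the place of SmB and is best known from neurons. Its level was under 2 CPM in every library, at 1.27, 1.65 and 1.63 CPM with vehicle and 0.598, 0.793 and 0.555 CPM with AOA, which rests on 16, 26 and 30 counts with vehicle and 13, 15 and 11 with AOA. Its log2 fold change was -1.23 ± 0.35 (SE), adjusted p = 0.0153, and the call was lost with DESeq2 (adjusted p = 0.0510) and without vehicle or AOA replicate 3 (0.0612 and 0.0761). The ratio of Snrpn to Snrpb in RPKM was 0.00455, 0.00557 and 0.00598 with vehicle and 0.000850, 0.00131 and 0.000956 with AOA, so Snrpn was a small part of the pair in both groups. Snrpn lies on chromosome 7 from 59982495 to 60450177 (GRCm38) and overlaps Snurf, whose reads may not be told apart from its own.

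Snrp genes for proteins of single snRNPs rose as well, 4 of 4. Snrpa and Snrpc encode proteins of the U1 snRNP, and Snrpa1 and Snrpb2 proteins of the U2 snRNP. Snrpa1 measured 38.2, 31.8 and 37.9 CPM with vehicle and 91.99, 78.2 and 74.5 CPM with AOA, a log2 fold change of 1.18 ± 0.14 (SE), adjusted p = 0.000201. Snrpc measured 20.8, 20.3 and 20.9 CPM with vehicle and 50.9, 33.8 and 42.5 CPM with AOA, a log2 fold change of 1.04 ± 0.17 (SE), adjusted p = 0.000966. For neither did the groups overlap. Snrpa and Snrpb2 rose by 0.98 and 0.86 on the log2 scale.

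Among the Lsm genes those of the Lsm1 to Lsm8 rings rose, 8 of 8, and none of the 5 others did. The Lsm2 to Lsm8 ring binds U6 small nuclear RNA in the nucleus, and in the cytoplasm Lsm1 replaces Lsm8 in a ring that takes part in mRNA decay. The median log2 fold change of the 8 was 1.28, which was 1.02 without AOA replicate 1. Lsm3 measured 15, 19.5 and 17.9 CPM with vehicle and 98.1, 61.3 and 68.1 CPM with AOA, a log2 fold change of 2.12 ± 0.20 (SE), adjusted p = 6.37e-05, and rose most of the 64 members. Lsm6 measured 19.05, 31.7 and 22.6 CPM with vehicle and 100.4, 75.1 and 81.4 CPM with AOA, a log2 fold change of 1.81 ± 0.21 (SE), adjusted p = 0.0001495. Lsm2 measured 12.9, 16.9 and 13.8 CPM with vehicle and 53.8, 42.3 and 43.4 CPM with AOA, a log2 fold change of 1.68 ± 0.17 (SE), adjusted p = 7.72e-05. All 3 genes at least tripled in mean CPM and their groups did not overlap. Lsm7 was lower in level, at 4.21, 4.69 and 4.13 CPM with vehicle and 17.5, 9.51 and 10.8 CPM with AOA, with a log2 fold change of 1.54 ± 0.27 (SE), adjusted p = 0.00132. The remaining ring genes were Lsm5 at 1.02, Lsm4 at 0.97, Lsm8 at 0.80 and Lsm1 at 0.57. Lsm1, the cytoplasmic member, had the smallest rise of the 8 at 0.57 ± 0.19 (SE), and its call was lost in 3 of 15 alternative fits, among them the fit without AOA replicate 1 (log2 fold change 0.36, adjusted p = 0.0732). Per length Lsm3 and Lsm4 stood highest of the 8 with AOA, at 120.2 and 117 RPKM.

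Outside those rings 1 Lsm gene fell and 4 were not called. Lsm10, which with Lsm11 belongs to the ring of the U7 snRNP that processes histone mRNA, measured 29.9, 24.6 and 28.8 CPM with vehicle and 21.7, 18.2 and 15.4 CPM with AOA. Its log2 fold change was -0.59 ± 0.17 (SE), adjusted p = 0.0165, with every AOA library below every vehicle library, and the call was lost without vehicle replicate 1, vehicle replicate 3 or AOA replicate 3. Lsm11 measured 35.7, 26.2 and 34.3 CPM with vehicle and 29.7, 30.4 and 33.9 CPM with AOA and was not called (-0.03, adjusted p = 0.874). Lsm14a and Lsm14b encode proteins of cytoplasmic RNA granules, and their log2 fold changes of 0.03 and -0.25 were not called (adjusted p = 0.886 and 0.114). Lsm12, at 0.29, was not called (adjusted p = 0.0803). Lsm14a was the most abundant Lsm gene per length with vehicle, at 89.2 RPKM with vehicle and 90.8 RPKM with AOA, next to 59.8 RPKM with vehicle and 117 RPKM with AOA for Lsm4. The ratio of Lsm8 to Lsm1 in RPKM, of the members that set the 2 rings apart, was 4.63, 3.71 and 5.95 with vehicle and 5.07, 5.23 and 6.56 with AOA, and the groups overlapped. That of Lsm14a to Lsm1 was 8.36, 6.98 and 9.69 with vehicle and 4.37, 5.79 and 7.59 with AOA, which overlapped as well. Within each mouse the ratio of Lsm8 to Lsm1 was higher with AOA and that of Lsm14a to Lsm1 lower, and neither was tested. That of Lsm2, which is in both rings, to Lsm1 was 1.02, 1.28 and 1.26 with vehicle and 2.33, 2.49 and 3.00 with AOA, higher in each AOA library than in any vehicle library.

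**Figure D3:**
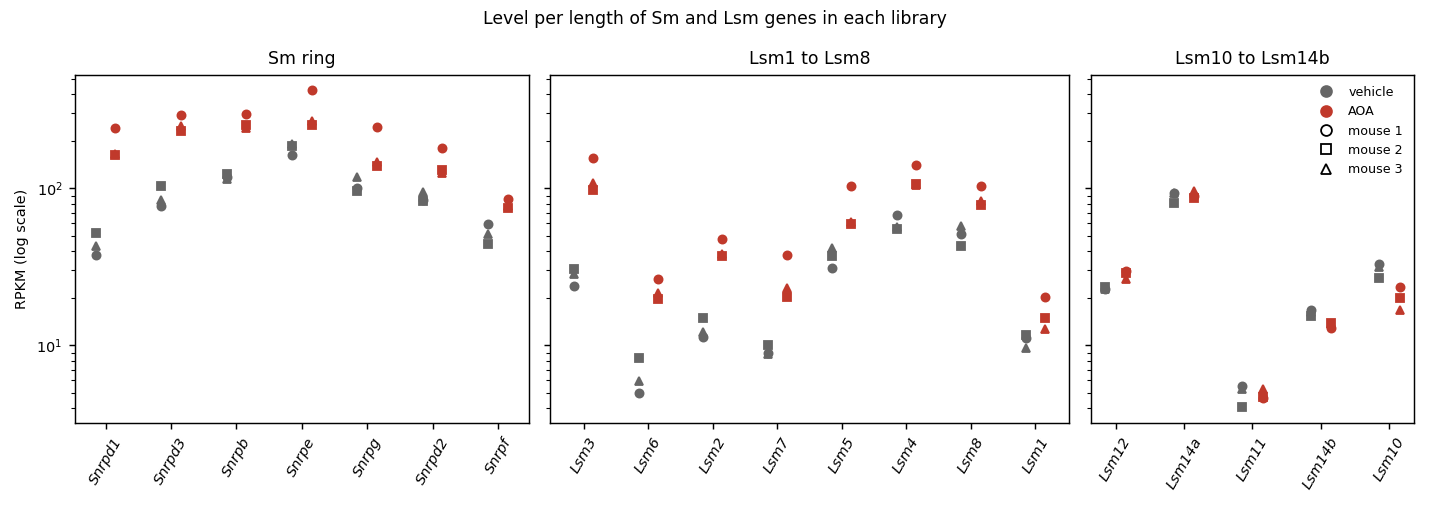
Level per length (y axis, RPKM on a log scale) of 7 Sm ring genes, of Lsm1 to Lsm8 and of the 5 other Lsm genes in each of the 6 libraries, grey for vehicle and red for AOA, with a symbol for each mouse. Red symbols lie above grey ones for all genes of the first and second panels, and in the third they lie above for Lsm12 (not called), below for Lsm14b (not called) and Lsm10 (called lower), and overlap for Lsm14a and Lsm11. In all 15 ring genes the red circle, AOA replicate 1, is the highest point.

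SR proteins bind exons through RNA recognition motifs and recruit the spliceosome through their arginine and serine rich tails. Of the 8 SR proteins 7 rose and Srsf5 fell. Srsf3 measured 114, 129 and 112 CPM with vehicle and 448, 299 and 319.8 CPM with AOA, with a log2 fold change of 1.59 ± 0.18 (SE), adjusted p = 0.000148. Srsf7 measured 89.3, 100.0 and 68.7 CPM with vehicle and 315, 211 and 213 CPM with AOA, with a log2 fold change of 1.52 ± 0.21 (SE), adjusted p = 0.000378. Both encode small SR proteins that also take part in mRNA export. Srsf2 measured 124, 131 and 96.1 CPM with vehicle and 345, 309 and 325 CPM with AOA, with a log2 fold change of 1.48 ± 0.16 (SE), adjusted p = 0.000104, and varied least of the 3 among AOA libraries. Srsf1, the founding SR protein, was the most abundant Srsf gene by CPM with AOA, at 243 ± 34.2 CPM with vehicle and 488 ± 11.2 CPM with AOA (SD, n = 3), with a log2 fold change of 1.01 ± 0.15 (SE), adjusted p = 0.000632. Srsf9, Srsf6 and Srsf4 rose by 0.74, 0.57 and 0.51. Of these Srsf6 lost its call in 3 of 15 alternative fits and Srsf4 in 1.

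Srsf5 went the other way. It measured 418, 292 and 352 CPM with vehicle and 179.7, 188 and 208 CPM with AOA, with every AOA library below every vehicle library and a log2 fold change of -0.88 ± 0.16 (SE), adjusted p = 0.00185, and it was called in each of 15 alternative fits. Per length it was the most abundant Srsf gene with vehicle, at 213 RPKM, and was at 116 RPKM with AOA, when Srsf2 stood at 171 RPKM. The ratio of Srsf3 to Srsf5 in RPKM was 0.149, 0.241 and 0.174 with vehicle and 1.36, 0.869 and 0.839 with AOA, and that of Srsf7 to Srsf5 was 0.129, 0.207 and 0.118 against 1.06, 0.678 and 0.618. The 2 ratios share Srsf5, and on the log2 scale they differed between groups by 2.44 and 2.38. The other Srsf genes are SR-related. Srsf10, a factor known to respond to heat shock, rose (1.08 ± 0.15 (SE), adjusted p = 0.000496), and Srsf11 measured 141, 143 and 123 CPM with vehicle and 158, 139.8 and 139 CPM with AOA and was not called (0.10, adjusted p = 0.527).

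The hnRNPs coat new transcripts, and theirs was the stem with the lowest share of called members, with 12 of 20 higher, 1 lower and 7 not called and a median log2 fold change of 0.55. In the A/B and D families 4 of 7 rose. Hnrnpab measured 161, 268 and 177 CPM with vehicle and 597, 763 and 745 CPM with AOA, with a log2 fold change of 1.80 ± 0.22 (SE), adjusted p = 0.000206. Hnrnpd, whose product AUF1 binds AU-rich mRNA, measured 106, 159 and 109 CPM with vehicle and 264, 397 and 417 CPM with AOA, with a log2 fold change of 1.53 ± 0.22 (SE), adjusted p = 0.000562. In both genes AOA replicate 1 was the lowest AOA library and still above all vehicle libraries. Hnrnpa2b1 had the highest RPKM of all Hnrnp genes, 189.6 with vehicle and 398 with AOA, and measured 394, 554 and 416 CPM with vehicle and 857, 1011 and 995 CPM with AOA, with a log2 fold change of 1.07 ± 0.18 (SE), adjusted p = 0.001101. Hnrnpa3 rose by 0.77. Hnrnpa1, Hnrnpa0 and Hnrnpdl had log2 fold changes of 0.02, 0.30 and 0.28 and were not called (adjusted p = 0.9403, 0.201 and 0.239). Hnrnpa1 measured only 18.97, 19.2 and 19.9 CPM with vehicle and 21.3, 19.98 and 17.4 CPM with AOA. Of the 75-base windows of its longest coding transcript 44.4% also occur in other genes, 13 of them pseudogenes, and reads that fit several places were not counted, so its level is uncertain.

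Hnrnpll is known as a regulator of CD45 splicing in lymphocytes. It measured 28.9, 53.95 and 33.5 CPM with vehicle and 72.5, 71.6 and 72.2 CPM with AOA. Vehicle replicate 2 lay well above the other vehicle libraries and below all AOA libraries, which were close together, and the log2 fold change was 0.89 ± 0.22 (SE), adjusted p = 0.00698. Ptprc, its known target, measured 4317, 3214 and 3873 CPM with vehicle and 2275, 2156 and 2252 CPM with AOA, with a log2 fold change of -0.77 ± 0.18 (SE), adjusted p = 0.00558. The counts are per gene, so they do not show which exons of Ptprc were used. Hnrnpl, the relative of Hnrnpll, rose by 0.62.

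Of the remaining hnRNPs, Hnrnpr, Hnrnpm and Hnrnpk rose by 0.99, 0.81 and 0.58, and Hnrnpc, at 0.22, was not called (adjusted p = 0.295). The F/H family, which binds runs of G, split. Hnrnph1 measured 170.2, 200.2 and 154 CPM with vehicle and 255, 254 and 248 CPM with AOA, with a log2 fold change of 0.53 ± 0.14 (SE), adjusted p = 0.0112. Its call was lost without vehicle replicate 3 (0.47, adjusted p = 0.0549). Hnrnpf rose by 0.50, while Hnrnph2, at 0.34, was not called (adjusted p = 0.0795). Hnrnph3 measured 46.7, 39.5 and 36.04 CPM with vehicle and 29.7, 28.3 and 33.8 CPM with AOA, with a log2 fold change of -0.41 ± 0.15 (SE), adjusted p = 0.0435, and its call was lost in a fit with a replicate block for the mouse (adjusted p = 0.0592) and in 9 of 15 alternative fits in all. The ratio of Hnrnph1 to Hnrnph3 in RPKM was 3.69, 5.13 and 4.32 with vehicle and 8.68, 9.11 and 7.41 with AOA.

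In the hnRNP U family AOA replicate 1 lay below the other AOA libraries. Hnrnpu, which also organizes chromatin, measured 564, 654 and 547 CPM with vehicle and 672, 1050.2 and 1047 CPM with AOA, with a log2 fold change of 0.65 ± 0.20 (SE), adjusted p = 0.0227, and was lost in 4 of 15 alternative fits. Hnrnpul2 measured 339, 333 and 358 CPM with vehicle and 254, 417 and 445 CPM with AOA and was not called (0.11, adjusted p = 0.667), and without AOA replicate 1 it was called higher (0.33, adjusted p = 0.0345). Hnrnpul1 measured 333, 269 and 332 CPM with vehicle and 240.1, 321 and 341 CPM with AOA and was not called (-0.05, adjusted p = 0.821). Summed over the 3 genes the ratio of AOA to vehicle was 0.943 in mouse 1, 1.42 in mouse 2 and 1.48 in mouse 3.

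**Figure D4:**
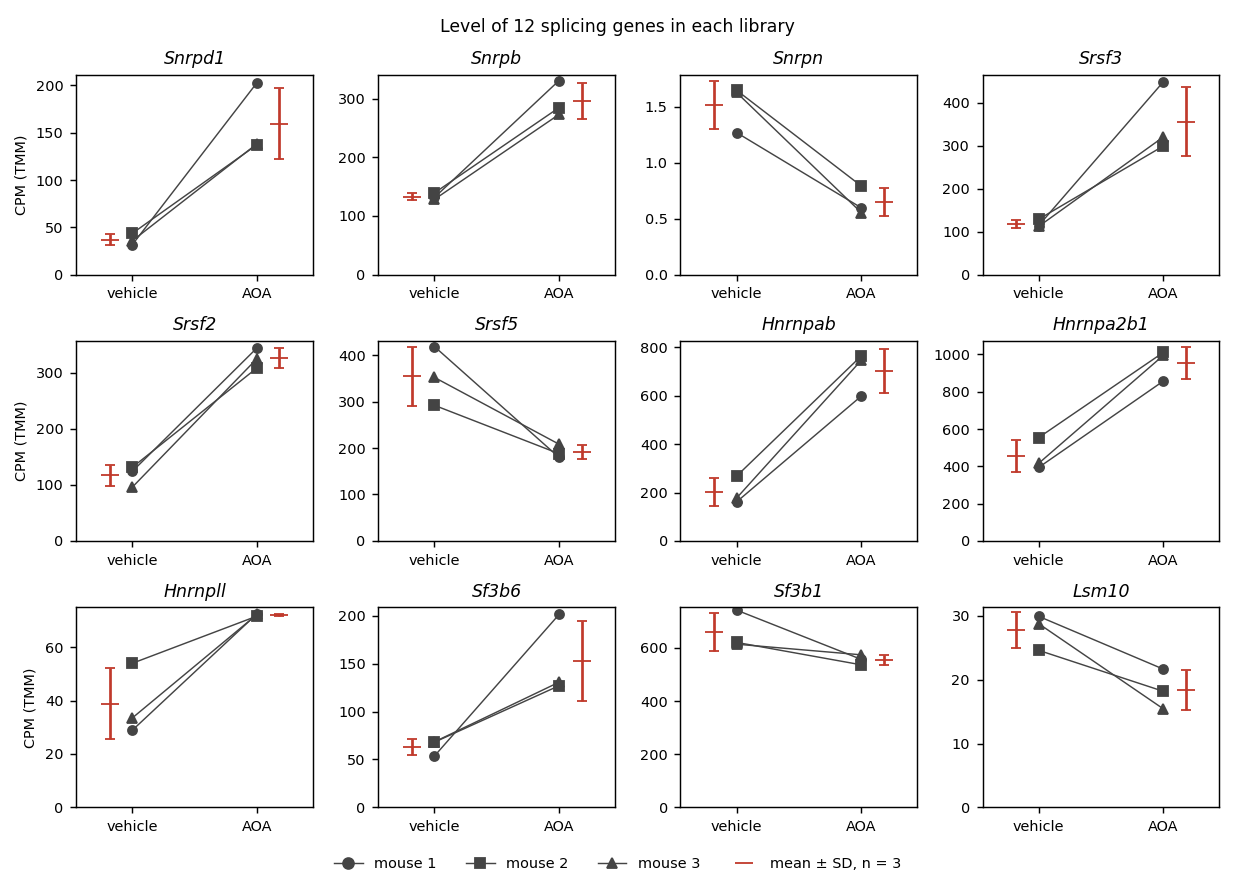
Level (y axis, CPM from 0) of 12 splicing genes in the vehicle and AOA culture of each mouse, with lines joining the cultures of a mouse and the group mean ± SD (n = 3) beside them. Lines rise in all 3 mice for Snrpd1, Snrpb, Srsf3, Srsf2, Hnrnpab, Hnrnpa2b1, Hnrnpll and Sf3b6 and fall for Snrpn, Srsf5, Sf3b1 and Lsm10, of which Sf3b1 was not called.

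Of the 9 genes for SF3A and SF3B subunits that the stem takes, 7 rose and 2 were not called. The 3 SF3A genes all rose, Sf3a3 by 1.0, Sf3a2 by 0.89 and Sf3a1 by 0.68. In SF3B 4 of the 6 genes with the stem rose. Sf3b6, whose product p14 touches the branch point adenosine, measured 53.6, 68.03 and 68.3 CPM with vehicle and 201, 127 and 131 CPM with AOA, with a log2 fold change of 1.27 ± 0.20 (SE), adjusted p = 0.000823. Sf3b5 measured 27.1, 25.7 and 23.5 CPM with vehicle and 67.2, 44.1 and 54.5 CPM with AOA, with a log2 fold change of 1.12 ± 0.17 (SE), adjusted p = 0.000719. Sf3b3 and Sf3b4 rose by 0.89 and 0.74. Sf3b1 and Sf3b2, with the highest RPKM of the stem in vehicle libraries, were not called. Sf3b1, the large scaffold subunit, measured 742, 621 and 614 CPM with vehicle and 557, 536 and 574 CPM with AOA, with every AOA library below every vehicle library, and its log2 fold change was -0.25 ± 0.15 (SE), adjusted p = 0.1896. Sf3b2 measured 348, 331 and 349.6 CPM with vehicle and 319.6, 411 and 446 CPM with AOA, with a log2 fold change of 0.19 ± 0.16 (SE), adjusted p = 0.327, and without AOA replicate 1 it was called higher (0.32, adjusted p = 0.0367). Sf3b1 and Sf3b2 are also the largest terms of the Sf3 sum, which had the lowest ratio of the 5 stems.

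Promoter windows were read to see what the members share in sequence, which the name stems did not use. RefSeq windows of GRCm38.p6, from 250 bases before to 50 bases after a start, matched 55 of the 64 members and 9438 of the tested genes. Each was searched on both strands for 9 sets of letters, ETS (CCGGAAG), E2F (GGCGGGAA), NRF1 (GCATGCGC), CRE (TGACGTCA), YY1 (AAGATGGCG), SP1 (GGGCGG), E-box (CACGTG), the CCAAT box (CCAAT) and the TATA box (TATAAA), where matches of different sets can overlap. CCGGAAG, the core bound by ETS factors, stood in 17 of 55 members (30.9%) and in 21.5% of all genes searched. GGCGGGAA, an E2F core, stood in 7 of 55 (12.7%) and 5.001%, CCAAT in 28 of 55 (50.9%) and 43.0%, GGGCGG in 41 of 55 (74.5%) and 68.9%, CACGTG in 6 of 55 (10.9%) and 11.9%, and TATAAA in 7 of 55 (12.7%) and 8.14%. GCATGCGC stood in 6 of 55 (10.9%) and 6.25%, TGACGTCA in 3 of 55 (5.45%) and 3.68%, and AAGATGGCG in 2 of 55 (3.64%) and 3.804%. By stem CCGGAAG stood in 6 of 7 Sf3 genes with a window, 4 of 10 Snrp, 4 of 10 Srsf, 2 of 18 Hnrnp and 1 of 10 Lsm genes, and CCAAT in 13 of 18 Hnrnp genes. Some genes have several windows, and a gene was counted where any of its windows held the letters. These are matches of letters and not binding sites, and the stems were compared after the matches had been seen.

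The stretches around CCGGAAG are shown for the 6 Sf3 genes that hold it, 5 of which rose, as the stem with the highest share. Each is written 5′ to 3′ on the gene's strand, and capitals mark CCGGAAG or its reverse complement CTTCCGG.
Sf3a1, chr11:4160336-4160364, plus strand: agagggcgggaCCGGAAGtgctcccgcgg
Sf3a2, chr10:80798648-80798676, plus strand: cgcctttgctcCCGGAAGggatcgcttcg
Sf3a3, chr4:124714760-124714788, plus strand: cccccaagacaCTTCCGGgacacgcggaa
Sf3b2, chr19:5295451-5295479, minus strand: ggattacgcaaCCGGAAGtttctggaagt
Sf3b3, chr8:110847015-110847043, minus strand: cccggtgggcgCTTCCGGgcttgcgaggt
Sf3b6, chr12:4817527-4817555, plus strand: cggtccgcaatCCGGAAGcgttctggagc
The centre of the motif lay between 4 and 87 bases before the start in all but Sf3b3, where it lay 226 bases before it. Sf3b6 holds a second match, in reverse, centred 82 bases before its start. Sf3b2 holds the letters and was not called.

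Srsf3 and Srsf5, which moved in opposite directions, also differ in these letters. The 250 bases before the start are given for both, with capitals on ATTGG (the reverse complement of CCAAT) and TATAAA in Srsf3 and on CTTCCGG and CCGGAAG in Srsf5.
Srsf3, chr17:29032410-29032659, plus strand, GRCm38: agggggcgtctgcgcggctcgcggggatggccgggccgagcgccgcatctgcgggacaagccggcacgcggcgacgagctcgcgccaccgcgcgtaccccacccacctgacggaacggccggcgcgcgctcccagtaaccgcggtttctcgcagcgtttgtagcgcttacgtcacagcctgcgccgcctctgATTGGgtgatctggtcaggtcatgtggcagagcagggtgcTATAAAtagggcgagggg
Srsf5, chr12:80945249-80945498, plus strand, GRCm38: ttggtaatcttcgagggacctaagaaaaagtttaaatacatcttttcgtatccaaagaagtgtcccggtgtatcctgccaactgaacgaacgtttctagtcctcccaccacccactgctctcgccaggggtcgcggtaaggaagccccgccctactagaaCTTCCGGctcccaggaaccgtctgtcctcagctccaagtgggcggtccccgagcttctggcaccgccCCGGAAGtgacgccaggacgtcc
Among the Srsf windows CCAAT stands in those of Srsf3, Srsf2, Srsf10 and Srsf1 and TATAAA in those of Srsf3 and Srsf2, all of which rose. CCGGAAG also stands in those of Srsf7 and Srsf4, which rose, and of Srsf11, which was not called. These windows are few, and the letters were compared after the values had been seen.

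Genes that act with the members were followed in 7 lists. Of 23 snRNP proteins with other name stems, 12 rose, 3 fell and 8 were not called, with a median log2 fold change of 0.60. The share called was 65.2% and the share higher 52.2%, beside 53.0% and 26.2% of all tested genes. Ppih, a cyclophilin of the U4/U6 snRNP, rose by 1.98 and Prpf31, of the same particle, by 1.51. Proteins of the minor U11/U12 snRNP went both ways. Snrnp48 and Pdcd7 fell (-1.07 ± 0.20 and -0.55 ± 0.17, SE), Snrnp25 and Zcrb1 rose (1.16 ± 0.20 and 0.63 ± 0.15, SE), and Zmat5, Snrnp35 and Rnpc3 were not called (0.31, 0.28 and 0.03, adjusted p = 0.207, 0.385 and 0.897). Snrnp70, the U1-70K protein, fell by 0.45 on the log2 scale, unlike Snrpa and Snrpc of the same particle, and lost its call in the fit with the replicate block (adjusted p = 0.0653). The list for Sm ring assembly held 18 genes, those of the SMN and PRMT5 complexes and, from outside them, Tgs1, Snupn, Phax and Coil. Of the 18, 12 rose, none fell and 6 were not called. The median was 0.72 and 66.7% were called, all of them higher. Gemin6 measured 3.095, 4.82 and 2.497 CPM with vehicle and 19.3, 14.4 and 14.7 CPM with AOA, a log2 fold change of 2.22 ± 0.27 (SE), adjusted p = 0.000227, and Gemin4 rose by 1.47.

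Of 21 SR kinases and SR-like factors 4 rose, 7 fell and 10 were not called, with a median of -0.11. The share called was 52.4% and the share higher 19.05%, beside 53.0% and 26.2% of all tested genes. Clk1, a nuclear kinase that phosphorylates SR proteins, measured 203, 162 and 183 CPM with vehicle and 67.7, 46.2 and 45.8 CPM with AOA, with a log2 fold change of -1.78 ± 0.18 (SE), adjusted p = 9.38e-05. Clk2 and Clk4 fell as well (-1.15 ± 0.17 and -1.13 ± 0.15, SE), while the kinases Clk3, Dyrk1a and Prpf4b were not called (-0.15, 0.21 and -0.03, adjusted p = 0.465, 0.178 and 0.832). The cytoplasmic SR kinases Srpk1 and Srpk2 fell by 0.82 and 0.46 on the log2 scale. Srrm2, a large SR-like protein of the active spliceosome, measured 1814, 1609 and 1516 CPM with vehicle and 721, 918 and 833 CPM with AOA, with a log2 fold change of -1.0 ± 0.17 (SE), adjusted p = 0.00113, and Nktr fell too (-1.09 ± 0.14, SE). Tra2b, an SR-like activator of exons, rose (1.15 ± 0.16, SE), as did Rnps1 (0.74 ± 0.14, SE).

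The other 4 lists were mixed. Of 27 catalytic-stage and Prp19 proteins 9 rose, 2 fell and 16 were not called, with Ppil1 at 1.79 and Prpf38a at 1.68 against Syf2 at -0.62 and Slu7 at -0.53. Of 34 other splicing regulators found (35 were listed) 14 rose, 4 fell and 16 were not called, with Mbnl3 at 1.81 against Ptbp2 at -0.88 and Rbm5 at -0.88. Of 13 genes of the exon junction complex and of nonsense-mediated decay 5 rose, 1 fell and 7 were not called, with Magoh at 1.67 and Eif4a3 at 0.98 against Smg1 at -0.71. Of 8 cytoplasmic decay partners of the Lsm1 ring 1 rose, Dcp2 at 0.60, and 1 fell, Dcp1b at -0.63. The medians were 0.12, 0.32, 0.04 and 0.01, and the shares called were 40.7%, 52.9%, 46.2% and 25% beside 53.0% of all tested genes. The shares higher were 33.3%, 41.2%, 38.5% and 12.5% beside 26.2%.

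**Figure D5:**
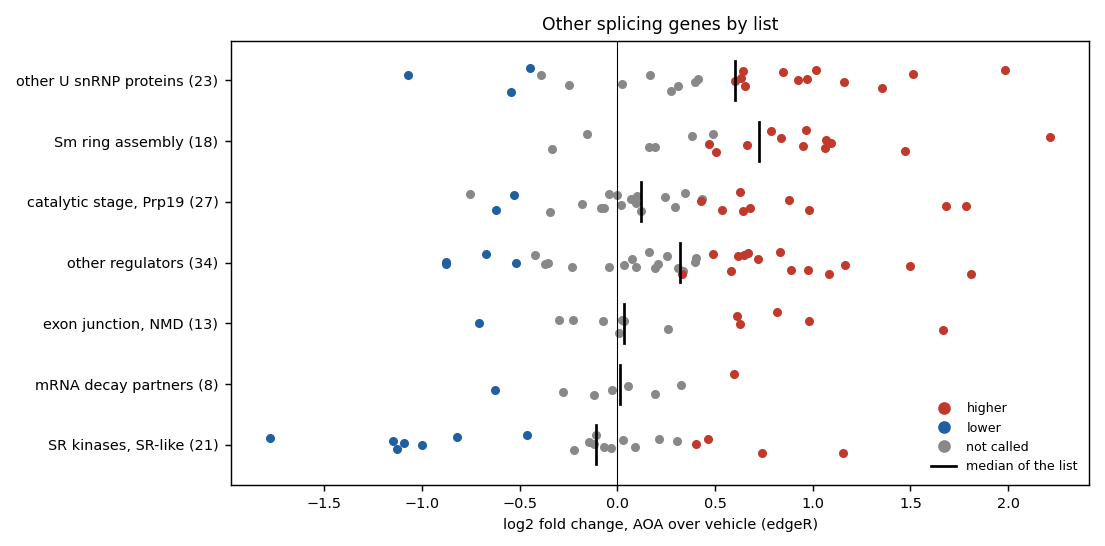
Log2 fold change of each gene (x axis, AOA over vehicle, edgeR) in 7 lists of splicing genes outside the name stems, with the number of genes beside each list, black bars for list medians and vertical scatter without meaning. Red points were called higher, blue lower and grey not called. The medians run from 0.72 for the Sm ring assembly list to -0.11 for SR kinases and SR-like factors, where Clk1 is the lowest point at -1.78.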

How the data were processed

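Libraries were made by the authors from messenger RNA with a stranded kit and sequenced as paired-end reads of 75 bases. Reads were aligned by the authors in STAR under its defaults, and the deposited table holds raw counts of reads with a unique place per gene, beside an Entrez number and a gene length. The submitters' processing notes also name featureCounts, DESeq2 and mm10. Of the annotation, the strand setting and a filter on genes, the sources used here give nothing.

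From these counts, genes were kept by filterByExpr (minimum count 10), scaled by TMM and tested by robust quasi-likelihood in edgeR 4.0.16 in R 4.3.3, with Benjamini-Hochberg adjustment over 11759 genes and a threshold of 0.05. The standard errors (SE) are not given by the test itself. Each was derived as the absolute log2 fold change divided by the square root of the F statistic of the test. CPM and RPKM use TMM library sizes and the deposited lengths, and log2 values of single libraries have a prior count of 2. The fit had no mouse term. The labels give the same mouse to both groups, and deviations from the group means correlated with r of 0.0869, 0.189 and 0.195 across genes within mice 1, 2 and 3. Replicates differed beyond sampling noise (chi-square per gene 10.2 to 72.3), with vehicle replicate 2 and AOA replicate 1 apart from the others of their groups. Alternatives were DESeq2 1.42.0, limma 3.58.1, other size factors and filters, the mouse as a replicate block, a length trend and each library left out. Steps were tested on simulated data. Sequence shared between genes was counted in GENCODE vM21 transcripts of GRCm38, and promoters came from RefSeq GRCm38.p6.

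The members and lists were chosen with earlier results of these data known. Named genes are up to 4 called members per stem and direction with the largest change and at least 10 CPM, the most abundant member of a stem, the Sm ring, all members not called, Hnrnpll, Ptprc, and up to 2 called genes per list and direction. Other members are named with their fold change only or as examples chosen after their values were seen. The result of 1 gene that this rule takes is not reported here.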

Additional observations from a re-analysis of the deposited data

How the results depend on the processing

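Of the 50 members called, 41 were called in each of 15 alternative fits (14 for Lsm7, too low at 10 CPM), 9 were lost in at least 1 (Hnrnpu, Srsf6, Srsf4, Lsm10, Lsm1, Snrpn, Hnrnph3, Snrpf and Hnrnph1) and 0 changed sign. Of the 14 not called, Hnrnpul2, Sf3b2 and Hnrnph2 were called without AOA replicate 1. Members called were 49 with DESeq2, 50 with limma and 48 of 62 tested at 10 CPM or more. With the mouse as a replicate block 49 members were called, 46 higher and 3 lower, and Hnrnph3 was the member lost. It changed no other member's call, and in the other lists it lost Snrnp70, Khsrp and Rbm10 and added Tia1 and Gemin7. The length trend with the block lost Snrpf (adjusted p = 0.0501). Leaving out each library gave 43 to 50 members called and 1 to 3 called lower, with 0 to 1 for Snrp, 0 to 0 for Hnrnp and 0 to 1 for Lsm. In those fits the Srsf median log2 fold change was 0.84 to 0.96 and the Hnrnp median log2 fold change 0.51 to 0.65.

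With a minimum log2 fold change of 1 there were 3081 of all genes and 22 members, 21 higher and 1 lower, with 5 higher for Snrp, 5 for Srsf, 3 for Hnrnp, 3 for Sf3 and 5 for Lsm, and 0 lower for Srsf, Hnrnp and Lsm. Snrp genes called lower were 0 with DESeq2 and 0 at 10 CPM or more, where Snrpn was not tested. Hnrnp genes called lower were 0 with total counts, without a low-count filter and with the replicate block. Apart from fewer genes passing a stricter rule, the cause was not tested. Low levels limit Snrpn, and shared sequence limits Hnrnpf, Hnrnpa1 and Sf3b4.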

Other observations

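The 6 MCM genes, which encode the replication helicase and are known to be raised in cells entering S phase, all rose with AOA. Their median log2 fold change was 2.14, beside -0.02 over all tested genes, of which 26.2% were called higher. The list was chosen with earlier results of these data known, and its relation to the splicing genes was not tested.

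Across the 64 members the log2 fold change had a Spearman correlation of -0.25 with gene length, against -0.11 across all 11759 tested genes. These are correlations across genes, which share the same libraries. The 22 members under 1500 bases had a median log2 fold change of 0.998 and the 42 others 0.60. With the length trend of each library removed the medians were 0.75 and 0.59, with 46 members called higher and 4 lower.

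Other annotated genes hold 47.0% of the 75-base windows of Hnrnpf, 43.2% of those of Sf3b4, 37.1% of Lsm5, 29.0% of Hnrnpk, 27.9% of Hnrnpa3, 25.2% of Srsf3 and 22.6% of Srsf5, mostly pseudogenes, and those reads were left out where they mapped to several places. At 34 members no such window was found. Genes that overlap a member on the genome were left out of these shares. Some of them, such as Gucd1 at Snrpd3 and Cog4 at Sf3b3, hold windows of the member.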
